A study of Mus musculus with 2 samples.

Results

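The cells described are 65 cells that passed an endothelial gate in a library of leptin receptor (LepR) lineage stromal cells from mouse bone marrow. A cell was taken as a member when it belonged to the library labelled LepR-Cre;tdTomato+ (LepR_tdT), held at least 1000 UMIs (unique molecular identifiers, each a counted molecule) and held at least 10 UMIs summed over 5 gate genes, Cdh5, Cldn5, Kdr, Stab2 and Tfpi. The members were 65 of the 3672 LepR_tdT cells with at least 1000 UMIs (1.77%, exact Clopper-Pearson 95% interval 1.37 to 2.25%) and of the 8786 cells of both libraries. The members were thus chosen by their UMIs of the gate genes, and the levels of those 5 genes are given as a description only.

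Marrow of the tibia was digested and read out cell by cell in 2 droplet RNA libraries, 1 per labelled population, so that the series holds no replicate. Mice of both libraries were C57Bl/6JCrl, 3 to 4 months old and of the genotype LepR-Cre;LSL-tdTomato, in which Cre is made where the leptin receptor gene is active and switches on the red protein tdTomato in those cells and their descendants. One library was labelled LepR-Cre;tdTomato+ cells and the other bone marrow endothelial cells (EC). The protocol names stains for CD45, Ter119, LepR and injected VE-Cadherin antibody but gives no sort gate, and its numbering of samples runs beyond these libraries. The first reference was the 3632 of 3800 EC cells with at least 1000 UMIs that passed the same gate (95.6%), called gated EC cells. The other was the 3509 LepR_tdT cells with a gate sum under 3, called other LepR_tdT cells, and 98 cells with sums of 3 to 9 were placed in neither class.

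Endothelial cells line the vessels of the marrow. Most of the marrow's vessel bed is sinusoidal, a wide, thin-walled and fenestrated endothelium that takes up circulating macromolecules through scavenger receptors such as the stabilins, while arterioles carry another programme with connexins and Notch targets. LepR-lineage stromal cells sit on the outer face of the sinusoids and are the main source of the chemokine Cxcl12 and of stem cell factor (Kitl) in marrow, so that the 2 populations are direct neighbours in the tissue.

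The members were of ordinary depth for endothelial cells of the series. They held 241067 UMIs in all, with a lowest, median and highest cell of 1089, 3594 and 9645 UMIs, against 1006, 3437 and 19673 UMIs in gated EC cells. The median gene number was 1587 in members and 1542 in gated EC cells. The mitochondrial share had a median of 3.81% in members, 3.83% in gated EC cells and 2.22% in other LepR_tdT cells, whose median depth was 4651 UMIs. The libraries shared 42 cell barcodes, none of them a member's. In the EC library the members' barcodes held 5 to 66 UMIs, with a median of 18. Intervals given here are exact 95% intervals of the summed counts or of shares of cells. They cover counting error only and neither animals nor preparations.

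The gate sums describe the choice and carry no test. The sum of the members ran from 11 through a median of 32 to 73 UMIs, and the median in gated EC cells was 34 UMIs. The 8 members with the lowest sums held 11 to 15 gate UMIs. Just outside the gate, 3 cells with sums of 8, 9 and 9 held 30, 19 and 26 UMIs of a sinusoidal list, at only 1275, 1889 and 1517 UMIs of depth and stromal shares of 0.235, 0.106 and 0.330%. The next 5 cells outside had sums of 6 or 7 with stromal shares of 5.90 to 9.02%. A gate of at least 5 would have taken 82 cells and one of at least 20 would have taken 53. None of the 578 LepR_tdT cells under 1000 UMIs reached a sum of 10.

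The members' transcripts did not form 1 group with respect to stromal genes. A list of 24 LepR stromal genes, among them Cxcl12, Hp, Adipoq and Lepr, took between 0.0379 and 1.04% of the UMIs in 58 members, with a median of 0.228%. In the other 7 members it took 2.75 to 4.23%, with a median of 3.65%. No member lay between 1.04 and 2.75%, and a cut at 2%, chosen after these values were seen, divides the members into 58 stromal-poor and 7 stromal-rich cells (10.8%, 4.44 to 20.9%). The median was 0.0312% in gated EC cells, whose highest cell had 0.615%, and 7.35% in other LepR_tdT cells. The stromal-poor members thus had a median between those classes, but 54 of the 58 lay at or below the highest gated EC cell. None of the gated EC cells reached the stromal-rich range, while 98 other LepR_tdT cells lay under 2%.

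**Figure D1:**
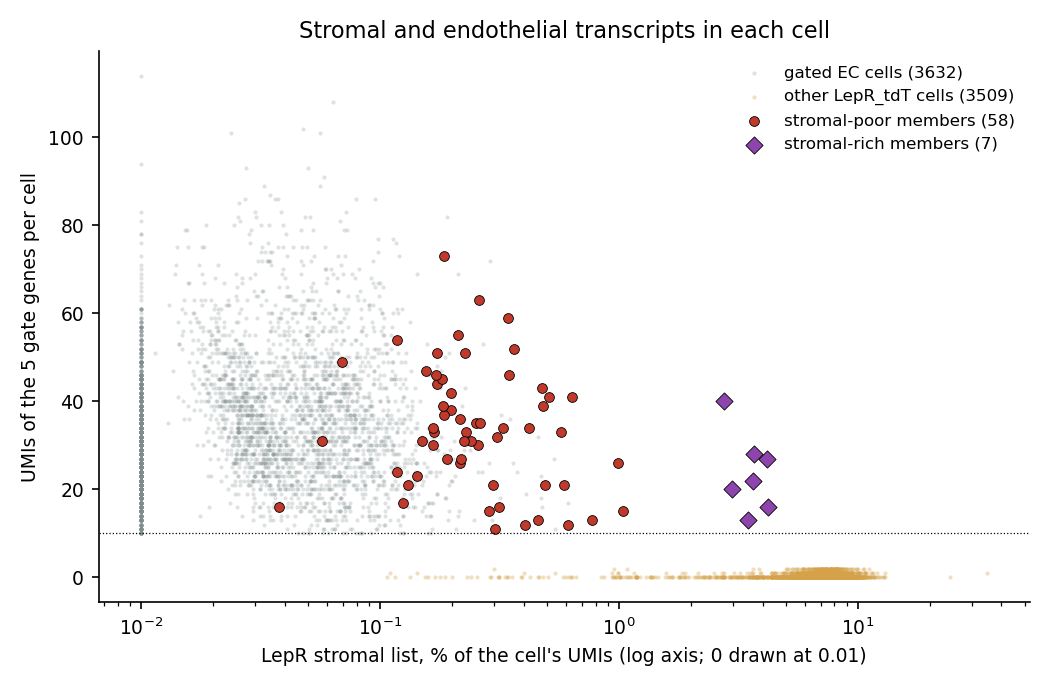
Each point is a cell, with the share of its UMIs in the LepR stromal list (percent, log axis, 0 drawn at 0.01) against the UMIs of the 5 gate genes. The dotted line marks the gate of 10 UMIs. Of the 58 stromal-poor members, 54 lie at or below the highest gated EC cell (0.615%). Their median was higher, at 0.228% against 0.0312% in gated EC cells. The 7 stromal-rich members lie apart at 2.75 to 4.23%.

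The stromal-rich cells were the deeper ones. Their depth was 4177, 6654 and 9645 UMIs (lowest, median and highest) with a median of 2522 genes, against 1089, 3469 and 5386 UMIs and 1522.5 genes in stromal-poor members. Their gate sums were 13, 22 and 40 UMIs and those of the stromal-poor cells 11, 33 and 73, so that the ranges overlapped. All 7 held both programmes at once: 14 to 56 UMIs of a list of 26 pan-endothelial genes and 124 to 395 UMIs of the stromal list. Cxcl12 counted 107, 54, 142, 103, 102, 186 and 123 UMIs in these 7 cells, and the sinusoidal list counted 55, 60, 17, 93, 64, 83 and 21 UMIs in the same cells. The lowest of the 7 Cxcl12 counts stood above the highest among stromal-poor members, which was 15 UMIs. No doublet caller was run, and whether these barcodes held more than 1 cell was not tested.

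Markers outside the gate matched the label in the 58 stromal-poor cells, whereas the 7 stromal-rich cells held endothelial and stromal markers together and are called by the rule only. The pan-endothelial list, which holds no gate gene, made up 0.944% of the UMIs of stromal-poor members, 0.467% of stromal-rich members, 1.01% of gated EC cells and 0.0216% of other LepR_tdT cells. Of its 26 genes, 22 were measured between members and gated EC cells. A gene is called measured when the mean of its levels in both classes was at least 50 CPM (UMIs per 1000000 UMIs of the class), and past the fold when the levels differed at least 2-fold. No pan-endothelial gene was past the fold in either direction, neither in all members nor in the stromal-poor cells, where the median log2 ratio was -0.18. Over all genes measured, 4.59% were past the fold for all 65 members (2.40% higher and 2.20% lower) and 3.14% for the 58 stromal-poor cells (1.10% higher and 2.03% lower). The gene-by-gene levels below are those of the 58 stromal-poor members unless the 65 are named.

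The pan-endothelial genes were close in level to the EC library one by one. Pecam1, an adhesion molecule of endothelial contacts, stood at 310 CPM in stromal-poor members and 362 CPM in gated EC cells. Emcn, a sialomucin of venous and sinusoidal endothelium, had 504 and 578 CPM, and Egfl7, a secreted endothelial factor, had 1124 and 1055 CPM. Plvap, which forms the diaphragms of fenestrae, counted 0, 5 and 19 UMIs per stromal-poor cell (lowest, median and highest) and 0, 5 and 31 per gated EC cell, and was seen in 98.3% of the cells of both classes. The distributions overlapped throughout, and the Plvap log2 ratio was 0.02. Cd93, a lectin-like receptor of endothelium, was lower at 210 against 357 CPM (log2 ratio -0.77, -1.25 to -0.32), without reaching the fold.

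Among the gate genes, given as a description, Cldn5 stood at 3515 CPM in stromal-poor members and 2626 CPM in gated EC cells, and Kdr at 1114 and 1121 CPM. Stab2 had 1340 and 1543 CPM, and Cdh5 736 and 837 CPM. Cldn5 encodes the tight junction protein claudin-5 and Cdh5 the VE-cadherin of adherens junctions, whereas Kdr is the main VEGF receptor and Stab2 a hyaluronan scavenger receptor.

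The members leaned to the sinusoidal side almost without exception. Per cell, UMIs were summed over 15 sinusoidal and 20 arterial genes, none of them a gate gene, and a cell leaned to the list with more UMIs if that list had at least 3. The sinusoidal sum was 0, 51 and 96 UMIs per member (lowest, median and highest), and the arterial sum 0, 2 and 44 UMIs. By this measure 63 of 65 members leaned sinusoidal (96.9%, 89.3 to 99.6%) and 2 leaned arterial, against 3542 sinusoidal and 84 arterial of 3632 gated EC cells (97.5% and 2.31%). Ctsl, a lysosomal protease, carries much of the sinusoidal sum, with 0, 26.5 and 64 UMIs per stromal-poor cell and 0, 5 and 33 per other LepR_tdT cell. Without Ctsl and the matrix gene Fbln5, 62 members leaned sinusoidal and 3 arterial (95.4%), against 95.8% of gated EC cells. The share moved with the gate: at a gate sum of at least 5, 72 of 82 cells leaned sinusoidal (87.8%) and 10 arterial, and at a sum of at least 20 all 53 leaned sinusoidal (100%, 93.3 to 100%). Other LepR_tdT cells held a median of 7 arterial and 5 sinusoidal UMIs, so an arterial lean does not by itself mark arterial endothelium. Cells just outside the gate with sums of 8, 9 and 9 had stromal shares of 0.235, 0.106 and 0.330%. The next ones, with sums of 6 or 7, had 5.90 to 9.02%. The deepest cell added by the looser gate held 87778 UMIs, of which 8714 (9.93%) fell in the megakaryocyte and platelet list. Whether the other added cells were endothelial was not tested. Stab2, a gene of sinusoids, is among the gate genes that chose the cells of both libraries.

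**Figure D2:**
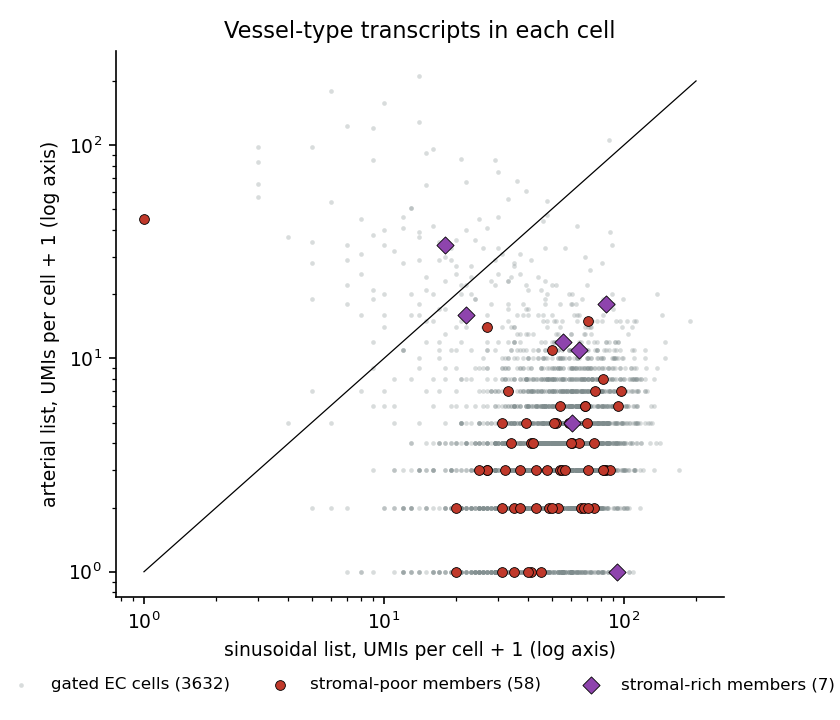
Each point is a cell, with its UMIs of the sinusoidal list against its UMIs of the arterial list (each plus 1, log axes). The line marks equal sums. Of the 65 members, 63 lie on the sinusoidal side, and the 2 above the line are 1 stromal-poor and 1 stromal-rich cell.

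The measured sinusoidal genes, 11 of 15, held no gene past the fold in either set of members, with a median log2 ratio of -0.36 in all members and -0.13 in the stromal-poor cells. The scavenger receptors Stab1 (457 against 644 CPM, log2 ratio -0.49, -0.82 to -0.19), Mrc1 (646 against 702 CPM) and Fcgr2b (736 against 862 CPM) were at or below the EC level. Flt4, a receptor for lymphatic VEGFs that marks sinusoids in marrow, had 436 and 476 CPM. Ackr1, a chemokine-binding receptor of venules and sinusoids, counted 0, 2 and 18 UMIs per stromal-poor cell and 0, 3 and 38 per gated EC cell, with 1098 and 1201 CPM (log2 ratio -0.13, -0.33 to 0.07). Its highest count among all 3509 other LepR_tdT cells was 1 UMI. Gpm6a, a membrane glycoprotein, had 867 and 733 CPM. Lyve1, Clec4g and Gata4, known from the sinusoids of the liver, and Cd209f had 0 UMIs both in members and in gated EC cells.

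Only 4 of the 20 arterial genes were measured, and Fbln5 was the one past the fold, at a log2 ratio of 1.52 in the stromal-poor cells and 2.31 in all members. Fbln5 was itself higher in other LepR_tdT cells than in gated EC cells (log2 ratio 4.48). The arterial-leaning stromal-poor member held 44 arterial, 0 sinusoidal and 50 pan-endothelial UMIs among 2221 UMIs. It had 16 UMIs of Ly6c1, 10 of Ly6a, 8 of Fbln5, 3 of Sema3g and 2 each of the arterial connexins Gja4 and Gja5, with 2 of Stmn2. It had passed the gate on 6 UMIs of Cdh5 and 6 of Cldn5, with none of Kdr, Stab2 or Tfpi. Its mitochondrial share was 8.24%. Its arterial sum was the highest of the 65 members. The arterial-leaning stromal-rich cell was mixed, with 33 arterial against 17 sinusoidal UMIs, a stromal share of 3.49%, and 11 of its 33 arterial UMIs from Fbln5.

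Over the whole profile the stromal-poor members stood nearer to sinusoidal-leaning EC cells than to arterial-leaning EC cells or other LepR_tdT cells. Over 2910 genes without the gate genes, Spearman's correlation of the summed levels was 0.904 with sinusoidal-leaning gated EC cells, 0.756 with arterial-leaning ones and 0.448 with other LepR_tdT cells. It was 0.878 with the free RNA of the EC library and 0.541 with that of their own library, where free RNA is the sum of the barcodes outside the cell table with at most 50 UMIs. Pearson's correlation of log2 levels was 0.934 with the free RNA of the EC library and 0.903 with sinusoidal-leaning EC cells, so that the order of these classes depends on the measure. For the 7 stromal-rich members the Spearman values for the cell classes were 0.577, 0.568 and 0.718. The points are genes, which are not independent replicates, and the members share a library and its depth with the other LepR_tdT cells.

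The remaining endothelial groups were small, and with 3.14% of all genes past the fold few calls could fall in any of them. Of the genes for angiogenic receptors, 16 of 18 were measured and none was past the fold (median log2 ratio -0.23 in stromal-poor cells). Flt1, a decoy receptor for VEGF, had 310 and 345 CPM, and Nrp1, a co-receptor for VEGF and semaphorins, had 368 and 371 CPM. Plxnd1, a semaphorin receptor, was lower at 210 against 311 CPM (log2 ratio -0.56). Of 18 endothelial transcription factors 12 were measured, none past the fold (median -0.13). The venous regulator Nr2f2 had 310 against 403 CPM, Ets1 483 against 479 CPM, and Meis2 189 against 110 CPM (log2 ratio 0.78, 0.26 to 1.26).

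Junction genes (6 of 11 measured), scavenger and endocytic receptors (7 of 11), adhesion genes (6 measured) and basement membrane genes (6 measured) had no member past the fold either, with medians of -0.20, -0.17, 0.02 and -0.58 in stromal-poor cells, where the median of all genes was 0.02. Vcam1, which binds integrins of blood cells and is made by both sinusoids and stroma, counted 0, 3 and 20 UMIs per stromal-poor cell, 0, 5 and 42 per gated EC cell and 0, 8 and 73 per other LepR_tdT cell. The ranges overlapped, and the summed level was lower in stromal-poor members than in gated EC cells (log2 ratio -0.65, -0.84 to -0.47). The selectins Sele and Selp, which capture leukocytes, had 158 and 357 CPM against 160 and 321 CPM.

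The pericyte and smooth muscle list took 0.200% of UMIs in stromal-poor members, 0.179% in gated EC cells and 0.0309% in other LepR_tdT cells. Kcnj8, Abcc9 and Rgs4, listed as pericyte genes but also present in the EC library, had 825, 520 and 578 CPM in stromal-poor cells and 663, 608 and 453 CPM in gated EC cells. Mcam, which endothelium also makes, had 9 UMIs. The mural genes Rgs5, Acta2, Myh11, Cspg4, Des and Higd1b had 0 UMIs in all 65 members. Among lymphoid and pan-leukocyte genes, Ptprc (CD45), Cd79a, Cd79b, Cd3e, Cd52, Laptm5, Coro1a and Tyrobp had 0 UMIs, and of 69 UMIs in the list Fcer1g gave 68 and Lyz2 gave 1. The granulocyte list came to 10 UMIs over all members, and the platelet genes Pf4, Ppbp and Itga2b to 10, 2 and 4 UMIs. The proliferation genes Mki67 and Top2a had 0 UMIs.

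The reporter and the leptin receptor were scarce in the members. tdTomato counted 4 UMIs, 1 in each of 4 members (16.6 CPM, 4.52 to 42.5), against 18.1 CPM in other LepR_tdT cells, 1.70 CPM in gated EC cells (22 UMIs) and 4.78 CPM in the free RNA of the LepR_tdT library. The log2 ratio of all members to gated EC cells was 3.28 (1.29 to 4.84), and the members' interval includes the level of other LepR_tdT cells and that of free RNA. Of the 4 UMIs, 3 were in stromal-poor cells (15.8 CPM, 3.25 to 46.1). In other LepR_tdT cells only 8.15% of cells showed a tdTomato UMI, so the transcript does not tell at this depth which of the members carried the reporter.

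Lepr counted 10 UMIs in the stromal-poor members (52.5 CPM, 25.2 to 96.6) and was seen in 15.5% of them. Its level was 296 CPM in stromal-rich members, 614 CPM in other LepR_tdT cells, 328 CPM in free RNA and 16.7 CPM in gated EC cells, of which 5.62% had a UMI. The log2 ratio to gated EC cells was 1.65 (0.57 to 2.56) in stromal-poor cells and 2.63 (1.97 to 3.23) in all members. The stromal-poor level thus lay between the EC cells and the free RNA of the same library.

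The osteolineage and LepR stromal lists had the highest medians of the lists compared between members and gated EC cells. Of the LepR stromal list, 12 of 24 genes were measured for all 65 members and all 12 were past the fold, with a median log2 ratio of 6.10. In the stromal-poor cells 6 were measured and 5 were past the fold (Cxcl12, Adipoq, Gas6, Hp and Cxcl14), with a median of 5.12. Since a gene absent from EC cells is measured only through the members, these counts are a description. Both measured osteolineage genes, Spp1 and Ibsp, were higher too. Of the niche factors 7 of 12 measured were higher in all members and 5 of 10 in stromal-poor cells, and no niche factor was past the fold downward.

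Cxcl12, the chemokine that retains haematopoietic stem cells, counted 0, 3 and 15 UMIs per stromal-poor member, 54, 107 and 186 per stromal-rich member, and 0, 164 and 499 per other LepR_tdT cell. In gated EC cells it counted 0, 0 and 36 UMIs. It was seen in 54 of 58 stromal-poor members (93.1%) and in 9.83% of gated EC cells, and after each cell was thinned to 1000 UMIs in 61.5% of all members and 3.39% of gated EC cells. The stromal-poor and the stromal-rich cells did not overlap in Cxcl12, which is itself part of the list that divides them. As summed levels the stromal-poor cells had 1156 CPM and the gated EC cells 61.1 CPM, an 18.9-fold ratio (log2 ratio 4.24, 4.02 to 4.46). The free RNA of the library had 23471 CPM, so that the stromal-poor level was 4.93% of the free RNA level.

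Several other stromal genes of the stromal-poor members stood at a similar part of the free RNA level. Others lay apart, such as Lepr at 16.0%, Gas6 at 9.45% and Dcn at 0.942% of it. Hp, encoding haptoglobin, had 410 CPM (0, 1 and 6 UMIs per cell) against 6.43 CPM in gated EC cells (log2 ratio 6.00, 5.53 to 6.46), which was 5.37% of the free RNA level. Adipoq, the adipokine adiponectin, stood at 4.77% of that level, Cxcl14, a chemokine, at 4.03%, the bone matrix genes Spp1 and Ibsp at 3.44 and 5.96%, and the stem cell factor Kitl, with 3 UMIs, at 3.22%. The median over 22 stromal genes was 4.85%, with a range of 0 to 17.6%. The highest was Lpl, the lipase that endothelium displays on its surface, at 258 CPM in stromal-poor members and 151 CPM in gated EC cells. Blood cell lists had lower medians in stromal-poor members, unevenly so. They were 0.189% of the free RNA level over 6 granulocyte genes, 2.99% over 5 erythroid genes and 0% over 7 lymphoid and other leukocyte genes. The erythroid genes ranged from 0 to 178%, with Blvrb the highest. In 18 blood cells of the LepR_tdT library, those with at least 5% of UMIs in erythroid and granulocyte genes, the stromal genes had a median of 24.7% of the free RNA level and the stromal list took a median of 0.337% of UMIs. These blood cells were uneven, with 12.5 stromal list UMIs in the median cell and 710 of their 1909 in the highest. The part of free RNA in the members' stromal levels was not tested.

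In the 7 stromal-rich members the same genes stood far higher. Their median was 72.3% of the free RNA level, with a range of 22.3 to 190%. Set against other LepR_tdT cells, Cxcl12 reached 47.6%, Hp 49.6%, Gas6, a ligand of TAM receptors, 47.4%, Kitl 53.5% and the mesenchymal receptor Pdgfrb 76.8% of their level. Pdgfrb had 434 CPM in these cells and 0 UMIs in gated EC cells. In the same cells the pan-endothelial list took 0.467% of UMIs against 1.01% in gated EC cells, and the sinusoidal list 0.775% against 1.47%.

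**Figure D3:**
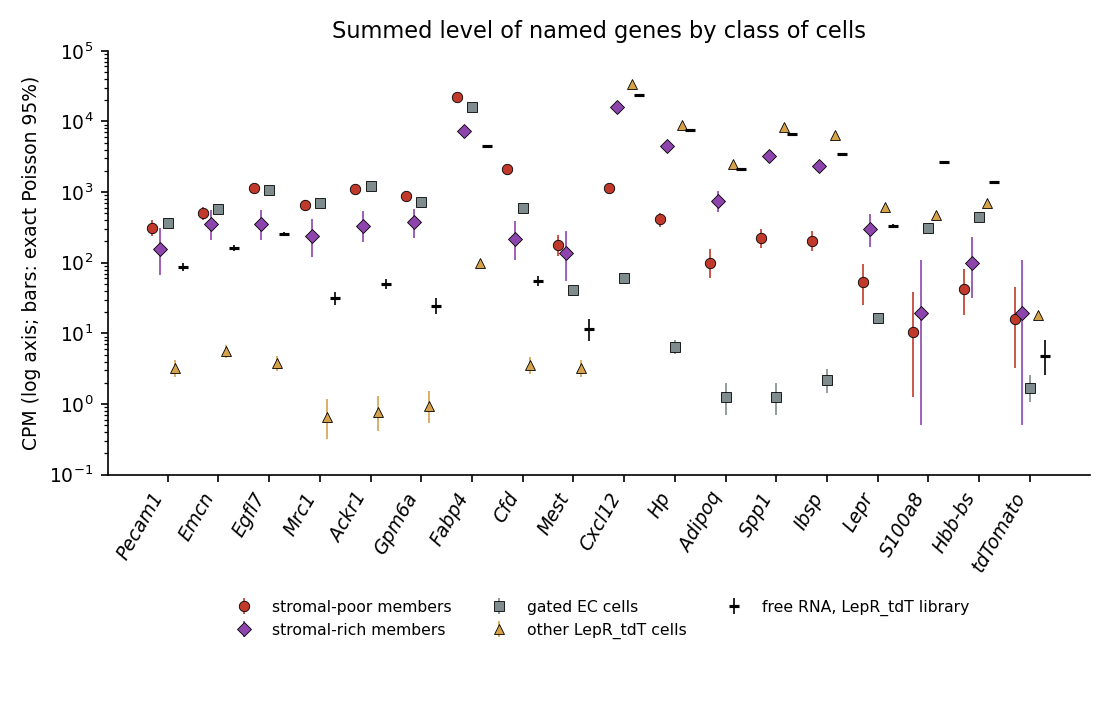
Summed levels (CPM, log axis, bars are exact Poisson 95% intervals, classes with 0 UMIs not drawn) of 18 genes in stromal-poor members, stromal-rich members, gated EC cells, other LepR_tdT cells and free RNA of the LepR_tdT library. Endothelial genes on the left show stromal-poor members beside gated EC cells, and stromal genes from Cxcl12 to Lepr show them between gated EC cells and the rest of their own library.

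Several genes were at least 2-fold higher in the stromal-poor members than in gated EC cells, other LepR_tdT cells and free RNA alike, among them Cfd and Mest. Cfd, at chromosome 10:79890853-79892655 on the plus strand (GRCm38), encodes complement factor D, known as adipsin. It counted 0, 1 and 50 UMIs per stromal-poor cell, 0, 0 and 63 per gated EC cell and 0, 0 and 3 per other LepR_tdT cell. It was seen in 30 of 58 stromal-poor cells (51.7%, 38.2 to 65.0%) and in 38.4% of gated EC cells (36.8 to 40.0%). The range of single cells in the EC library covered that of the members. Summed, the 403 UMIs gave 2117 CPM (1916 to 2335) against 598 CPM in gated EC cells, a 3.54-fold ratio (3.20 to 3.92), and the levels were 55.6 CPM in free RNA and 217 CPM in stromal-rich members, there from 1 cell. The member with most Cfd held 12.4% of the UMIs. Against all 65 members the log2 ratio was 1.52 (1.38 to 1.67), and at a gate sum of at least 5 it was 0.74. The set at that looser gate includes the cell of 87778 UMIs described above.

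Mest, an imprinted gene at chromosome 6:30723547-30748465 on the plus strand, had 34 UMIs in 18 stromal-poor cells. Its level was 179 CPM (124 to 250) against 41.6 CPM in gated EC cells, 3.25 CPM in other LepR_tdT cells and 11.4 CPM in free RNA (a 4.30-fold ratio, log2 interval 1.56 to 2.60). A UMI was seen in 31.0% of stromal-poor cells and 10.2% of gated EC cells, and after thinning in 12.3% of all members and 3.94% of gated EC cells. Mest was higher in the stromal-rich members as well, at 138 CPM. At a gate sum of at least 5, with the cell of 87778 UMIs included, its log2 ratio was 1.28.

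**Figure D4:**
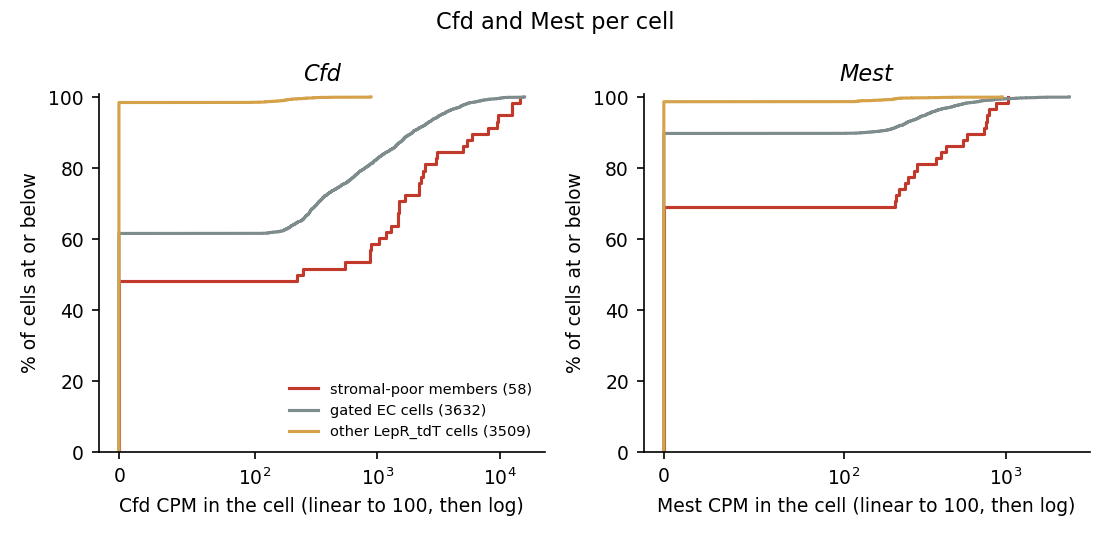
Cumulative share of cells (percent) at or below a given level of Cfd or Mest in the cell (CPM, linear to 100 and then log) for stromal-poor members, gated EC cells and other LepR_tdT cells. A UMI of Cfd was present in 51.7% of stromal-poor members and 38.4% of gated EC cells, and a UMI of Mest in 31.0 and 10.2%.

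Further genes of this kind had smaller ratios. Ptges, a prostaglandin E synthase, had 99.8 CPM in stromal-poor members and 37.7 CPM in gated EC cells (25.9 and 11.2% of cells). Pex11a, a peroxisome protein, had 99.8 against 39.4 CPM (log2 ratio 1.34, 0.60 to 2.00), and Rom1, Guk1 and Nek7 had log2 ratios of 1.29, 1.14 and 1.09. Fabp4, a fatty acid carrier of capillary and sinusoidal endothelium, was seen in all 58 stromal-poor cells with 4, 63.5 and 242 UMIs. Its level of 21810 CPM stood above the 15983 CPM of gated EC cells without reaching the fold (log2 ratio 0.45, 0.40 to 0.49). Of the lipid handling genes 7 of 12 were measured, and Cfd was the one past the fold in stromal-poor cells. Gpihbp1, which carries the lipase across endothelium, had 930 and 886 CPM, and the fatty acid receptor Cd36 had 615 and 413 CPM.

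Bmp4 and Igf1, secreted growth factors of the niche list, were higher in the stromal-poor members than in gated EC cells, at 226 against 88.5 CPM (log2 ratio 1.35, 0.88 to 1.79) and 94.6 against 29.9 CPM (log2 ratio 1.66). Bmp4 counted 0, 0 and 7 UMIs per stromal-poor cell, in 23 of 58 cells. Other LepR_tdT cells had 256 CPM of Bmp4, close to the members' level, and Nr4a1, described next, was likewise higher in them than in gated EC cells (log2 ratio 1.56).

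Stress-related groups had medians somewhat above that of all genes. Of the immediate early genes 13 of 15 were measured with a median log2 ratio of 0.47, and Nr4a1, an orphan nuclear receptor, was the one past the fold at 221 against 103 CPM (log2 ratio 1.10, 0.62 to 1.54). Fos had 2249 against 1629 CPM and Jun 1082 against 1188 CPM, so that these partners of AP-1 differed in direction. Of the heat shock genes 10 of 12 were measured (median 0.52), and Hspa1a, an inducible HSP70, was just past the fold at 1487 against 731 CPM (log2 ratio 1.02, 0.85 to 1.20). Over all 65 members no gene of either list was past the fold, with log2 ratios of 0.92 for Nr4a1 and 0.77 for Hspa1a. Hspa1a, which is also the one gene past the fold among 10 measured of activated endothelium, was seen in 41.4% of stromal-poor cells and 45.8% of gated EC cells, and 1 cell held 14.1% of the members' UMIs. The flow-responsive Klf2 had 730 against 473 CPM (log2 ratio 0.63). Antigen presentation genes (7 measured, median 0.18) and interferon response genes (6 measured, median 0.12) held none past the fold in stromal-poor cells.

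**Figure D5:**
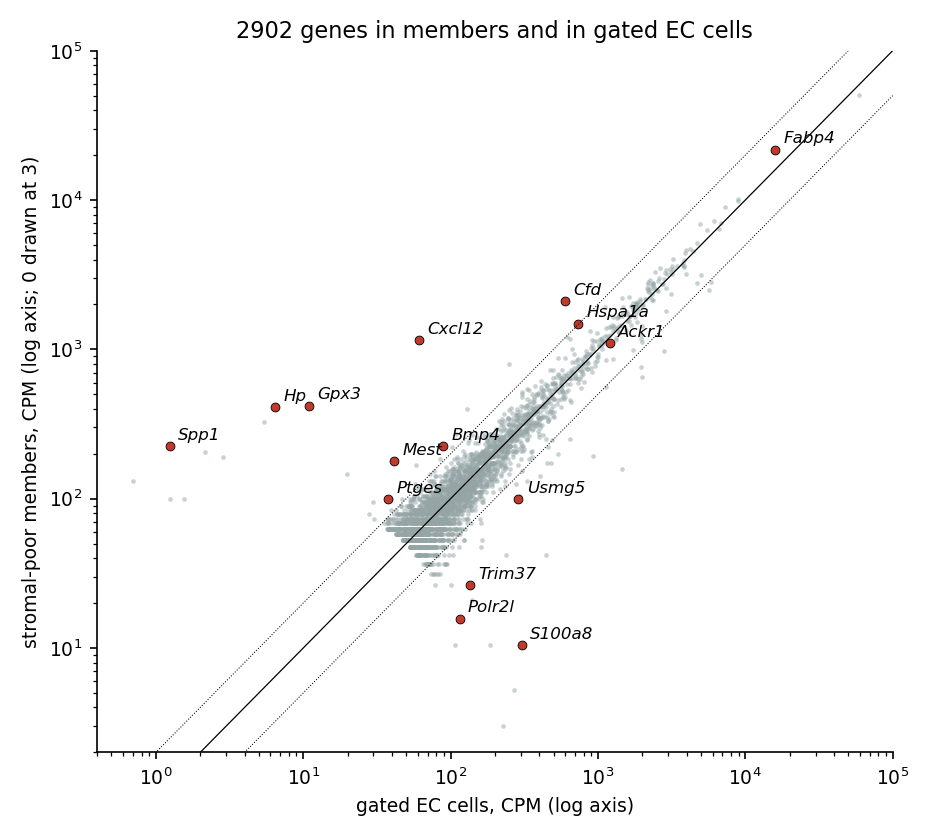
Summed levels (CPM, log axes, 0 drawn at 3 on the y axis) of 2902 genes in the 58 stromal-poor members against gated EC cells. The solid line marks equal levels and the dotted lines the 2-fold bounds, beyond which 32 genes lie above and 59 below.

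Blood cell transcripts were among the genes that were lower in the members. S100a8, a calcium-binding protein of granulocytes, had 2 UMIs in the stromal-poor cells (10.5 CPM) against 305 CPM in gated EC cells (log2 ratio -4.86, -7.91 to -3.01). One EC cell held 76.4% of the S100a8 UMIs of that class. Against the 3625 gated EC cells with under 5% of UMIs in erythroid and granulocyte genes, the EC level was 72.3 CPM and the log2 ratio -2.78 (-5.83 to -0.92). S100a8 was seen in 3.45% of stromal-poor cells and 21.3% of gated EC cells, and after thinning in 3.08% of all members and 6.91% of gated EC cells. The globin gene Hbb-bs had 8 UMIs in stromal-poor members and 441 CPM in gated EC cells (log2 ratio -3.39), in 10.3 and 33.4% of cells. Without the blood-rich EC cells its log2 ratio was -1.80 (-3.02 to -0.82), and the erythroid list took 0.0712% of UMIs in gated EC cells, against 0.145% with them and 0.0567% in stromal-poor members. The erythroid list reached at most 0.258% of UMIs in a member and 53.6% in a gated EC cell.

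Other named genes that were lower lie outside the blood cell lists. Polr2l, a subunit of RNA polymerases, had 15.8 against 115 CPM (log2 ratio -2.87, -5.15 to -1.32), and Trim37, a ubiquitin ligase, had 26.3 CPM with a log2 ratio of -2.36 (-3.98 to -1.13). Ndufa3, a subunit of respiratory complex I, had 173 against 451 CPM, and Usmg5, a component of ATP synthase, 99.8 against 289 CPM. Usp50, Grcc10 and Wdr89 had log2 ratios of -1.95, -1.64 and -1.46. These 7 genes were lower in other LepR_tdT cells than in gated EC cells as well, with log2 ratios of -2.07 for Polr2l, -5.27 for Trim37, -2.32 for Wdr89 and -0.79 for Usmg5. The free RNA of the libraries differed the same way, with 3.31 against 32.3 CPM of Trim37 and 146 against 262 CPM of Usmg5. In blood cells the LepR_tdT library was lower for Wdr89 (log2 ratio -1.50, -2.40 to -0.64). There the intervals of Polr2l (-8.12 to 0.84), Ndufa3 (-1.51 to 0.04) and Usmg5 (-1.30 to 0.43) included no difference, as did that of Grcc10, whose ratio was higher (1.68, -0.60 to 4.92). Usp50 and Trim37 had too few UMIs in blood cells for a ratio. With 1 library per population, a difference between libraries and a difference between cells cannot be told apart for these genes.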

How the data were processed

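The deposited matrix holds raw UMI counts of 27999 genes for all barcodes of both libraries, and the authors' cell table names the library, UMI count and gene count of 8786 cells, which recomputed numbers matched for all 8786. Per the submitters' processing notes the tools were Seurat 2.3.4 and Cell Ranger 2.1.1 and the build was mm10, with no roles stated. Aligner settings and any removal of doublets are not given in the sources used here. No doublet caller was run here, and doublets were kept. Library totals were 21983361 (LepR_tdT) and 18152304 UMIs (EC). Free RNA comprised 322103 barcodes with 2717272 UMIs in the LepR_tdT library.

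Counts were summed per class of cells and given as CPM with exact Poisson intervals, shares of cells with exact Clopper-Pearson intervals and ratios with exact conditional (binomial) intervals, all at 95%. In ratios 3 UMIs stood in for a class at 0, which makes the ratio a bound. Shares of cells were also taken after thinning each cell to 1000 UMIs. With 1 library per group no test was made. The functions were tested on simulated data. Positions come from GENCODE M21 (GRCm38). Python 3.11.15, numpy 2.4.6, scipy 1.17.1, pandas 2.3.3, matplotlib 3.10.9 and, for an alternative scaling, edgeR 4.0.16 were used.

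The members and the 31 gene lists were chosen with earlier results of these data known. Named genes were the gate genes, tdTomato and Lepr, up to 4 measured genes per list with the most extreme ratio of members to gated EC cells, the 10 highest and 10 lowest ratios where the higher class had 100 CPM or more, the 10 highest ratios among genes also at least 2-fold above free RNA and other LepR_tdT cells, and, for other cell types, the 3 list genes with most UMIs. Ranking skipped predicted genes and genes of haemoglobins, ribosomal proteins and mitochondria. Not every gene the rule gives is reported here. Other named genes were chosen after their values were seen. Alternatives covered the gate, the filter on levels, the scaling, free RNA and the reference cells.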

Additional observations from a re-analysis of the deposited data

How the results depend on the processing

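No paired analysis was possible because each group is 1 library. Against gated EC cells 71 genes were higher and 65 lower in the 65 members. At a gate sum of at least 5 these counts were 341 and 212, with a mean level of at least 20 CPM 271 and 231, at 100 CPM 30 and 28, and with no filter 3965 and 833. The set at a gate of 5 includes a cell of 87778 UMIs, against 241067 UMIs in all 65 members. Of its UMIs, 8714 (9.93%) fell in the megakaryocyte and platelet list. Every value given at that gate includes this cell. Members under the 5th percentile of the stromal share of other LepR_tdT cells (61 cells) gave 45 higher. Alternatives chosen after seeing the data were members under 2% of stromal share (32 higher), gated EC cells under 5% of blood transcripts (72 higher, 62 lower), vessel lists without Ctsl and Fbln5, and free RNA from barcodes of 51 to 200 UMIs. Scaling by TMM (edgeR) shifted all log2 ratios by 0.0693 and gave 67 higher and 83 lower, so that 44.7% of the genes past the fold were higher, against 52.2% without it. Subtracting free RNA gave 59 and 64, leaving out the deepest member 60 and 63, EC cells of middle depth 72 and 58, and a gate of 20 gave 66 and 77.

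The stromal list's median log2 ratio was 6.10, and 6.88 under the 5th percentile and 5.12 under 2%. The stromal share of the members' UMIs was 0.971%, 2.06% at a gate of 5, 0.813% at a gate of 20 and 0.280% under 2%. As a part of free RNA, the stromal genes had a median of 19.4%, 41.8% at a gate of 5, 15.4% at 20, 4.85% under 2%, 27.7% with free RNA from barcodes of at most 20 UMIs and 21.5% from 51 to 200 UMIs. The sinusoidal-leaning share was 96.9%, 87.8% at a gate of 5 and 100% at 20. Of the list medians at least 2-fold from equal in all members, those of the label check genes and the angiocrine list changed sign. The label check median was -0.28 under the 5th percentile and -0.19 under 2%, and the angiocrine median was -0.0137 under 2%. Both lists had 2 genes measured in all members and only 1 under 2%, so these medians are not over the same genes. Lepr was no longer measured under 2%, and the label check median there is that of Cdh5 alone. Smaller medians changed sign too, such as those of the pericyte, adhesion and activated endothelium lists. These were -0.22, -0.19 and -0.15 in all members and 0.05, 0.02 and 0.13 under 2%. Causes beyond the change of genes measured were not tested. The main results were the counts of genes and of members, the stromal values and the sinusoidal-leaning share. Over all alternatives, 29 of their values stayed within the tolerance and 22 moved further. That tolerance was set by the counting interval or, for counts, at 1.5 times. Of the other values, 1649 stayed within the tolerance set by their counting interval and 185 moved further.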

Other observations

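The B cell gene Cd79a had 124 CPM in the free RNA of the LepR_tdT library and 0 UMIs in the 65 members. The platelet genes Pf4 and Ppbp had 789 and 901 CPM in it, with 10 and 2 UMIs in the members. Edn1, which encodes the vasoconstrictor endothelin-1, counted 7 UMIs in 3 stromal-poor members (36.8 CPM) against 3.56 CPM in gated EC cells.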
